A study of Mus musculus with 60 samples.

Results

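Mitochondrial ribosomal protein genes, the nuclear genes named Mrpl for the large subunit and Mrps for the small subunit of the mitochondrial ribosome, were followed through mouse preimplantation development in embryos conceived in vivo and in embryos made by somatic cell nuclear transfer (NT). The members were all genes in the expression table whose Ensembl identifier belongs to a protein-coding gene with a symbol that starts with Mrpl or Mrps and goes on with a digit. There were 77 members among the 27238 genes of the table, 48 named for the large subunit and 29 for the small subunit. Both the rule and this split use names only. Members with an Mrps name whose products belong elsewhere, such as Mrps18a and Mrps36, are therefore counted with the small subunit. Another gene that the rule names, Mrpl53, was not analysed here.

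The mitochondrial ribosome, or mitoribosome, translates the few messenger RNAs that the mitochondrial genome encodes, all of which give subunits of the respiratory chain and of ATP synthase. Its ribosomal RNAs come from the mitochondrial genome, while every one of its proteins is made in the cytosol from a nuclear gene and imported. The mouse embryo inherits its mitochondria, and a store of maternal messenger RNA, from the oocyte, and its own genome is activated mainly at the 2-cell stage, in zygotic genome activation (ZGA). In an NT embryo the activated genome is that of a somatic donor nucleus, and the mitochondria are those of the recipient oocyte, with whatever few come along with the donor.

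The 60 libraries fell into 20 groups of 3. In vivo embryos came from superovulated C57BL/6 females mated with DBA2 males. NTC embryos were built from the nuclei of cumulus cells (CCs), the somatic cells that surround the oocyte, and NTM embryos from the nuclei of mouse embryonic fibroblasts (MEFs). In both NT types the nucleus was placed in an enucleated oocyte from superovulated BDF1 females, which was activated with strontium chloride, treated with the histone deacetylase inhibitor Scriptaid and cultured in vitro, whereas the in vivo embryos were not made by this route. All groups shared the BDF1 background. Each embryo type was taken at 6 stages, namely with 1, 2, 4 and 8 cells and as morula and blastula, with 1 embryo per library, and the donor CCs and MEFs formed the remaining 2 groups. The oocytes themselves came from C57BL/6 females for in vivo and from BDF1 females for NT embryos. Donor cell, oocyte strain, oocyte manipulation, strontium activation, Scriptaid and in vitro culture differ together between the NT and in vivo embryos. Their parts in any difference therefore cannot be told apart.

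Values are RPKM, a read count divided by gene length and by the depth of the library, and levels are given either as RPKM or as log2(RPKM + 1). A change is the difference in mean log2(RPKM + 1), which understates the change of a low gene. A member was called higher or lower in a comparison when limma gave an adjusted p under 0.05 across all genes tested. The change also had to be at least 1 on the log2 scale, which is 2-fold. Counts given at an unadjusted p under 0.05 keep this 2-fold limit. Depth ran from 5294167 to 47830132 reads on genes, with a median of 14718210 in the embryos and at least 31558140 in the donor cells, and 7390 to 131119 of those reads fell on the members. On a gene of 1 kilobase, 3 reads came to between 0.0627 and 0.567 RPKM, so a value near this range is at the edge of what a library could show. Because RPKM is a share of the reads of a library, less messenger RNA from a gene and more from all the others cannot be told apart, and in the donor libraries neither can fewer cells of a type and less RNA per cell. Reads of overlapping genes are a further limit: 45 members share no exon base with another gene and 32 do, 9 of them over more than 20% of their exon bases.

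The 3 in vivo 4-cell libraries stood apart from every other group, also outside the members. In them, 562 of the 5473 genes with a mean of at least 5 RPKM (10.3%) were more than 4-fold above each of the other 19 groups; the next embryo group, the in vivo blastulas, had 104 of 3929 (2.65%), and the MEFs had 9.50%. Reads from the mitochondrial genome made up 5.68% to 8.87% of the reads in these libraries, against 29.6% to 40.4% in the NT 4-cell libraries and 32.1% to 45.0% in the in vivo 8-cell libraries. That share did not set them apart from earlier stages, since it was 4.71% to 13.4% in the in vivo 1-cell and 7.32% to 12.7% in the in vivo 2-cell libraries. Across the members, the profiles of the 3 libraries correlated with each other at 0.962 to 0.973 on the log2 scale but at only 0.456 on average with their nearest group, the NTM 4-cell embryos; these correlations are over 77 genes within libraries and are given as a description. Summed RPKM of 7 cumulus cell markers was at most 0.107 and that of 6 fibroblast markers at most 0.842 in these libraries, while the same lists summed to 492 to 1396 in CCs and 4438 to 6439 in MEFs. The cumulus list did not set CCs apart from MEFs, in which it summed to 516 to 1203, and Has2 was at 0 in the CCs. For the stages, 6 oocyte markers summed to at least 1522 RPKM in every 1-cell and 2-cell library and to at most 382 later, the highest of these in an NTM 4-cell library, and 4 trophectoderm markers summed to at least 149.7 in every blastula library. Whether the stage, the handling or the libraries themselves set the 4-cell in vivo values apart cannot be told from 3 libraries of 1 group, so each step out of the 2-cell stage is given both with the 4-cell and with the 8-cell stage as its end.

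The members as a group had their lowest levels at the 1-cell and 2-cell stages and higher levels from the 4-cell stage on. The median member in vivo had a log2(RPKM + 1) of 1.93 ± 0.19 (SD, n = 3) at the 1-cell stage and 1.71 ± 0.29 at the 2-cell stage. It reached 5.08 ± 0.05 at the 4-cell stage and then stood at 3.18 ± 0.16, 3.28 ± 0.43 and 2.72 ± 0.09 at the 8-cell, morula and blastula stages. NTC embryos gave 2.43 ± 0.18 and 2.196 ± 0.082 at the first 2 stages and 3.51 ± 0.16 at the 4-cell stage, and no later NTC group left the range from 3.27 to 3.66. In NTM embryos the median member stood at 1.24 ± 0.54 at the 2-cell stage, where the 3 libraries spread from 0.61 to 1.57, and reached 3.39 ± 0.26 at the 4-cell stage. At the 8-cell and morula stages the library ranges of the 3 embryo types overlapped. At the blastula stage the in vivo libraries, at 2.62 to 2.78, lay below the NTC libraries, at 3.22 to 3.90, and the NTM libraries, at 3.07 to 4.14. The CCs, at 3.37 to 3.90, and the MEFs, at 3.33 to 3.81, covered nearly the same range.

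**Figure D1:**
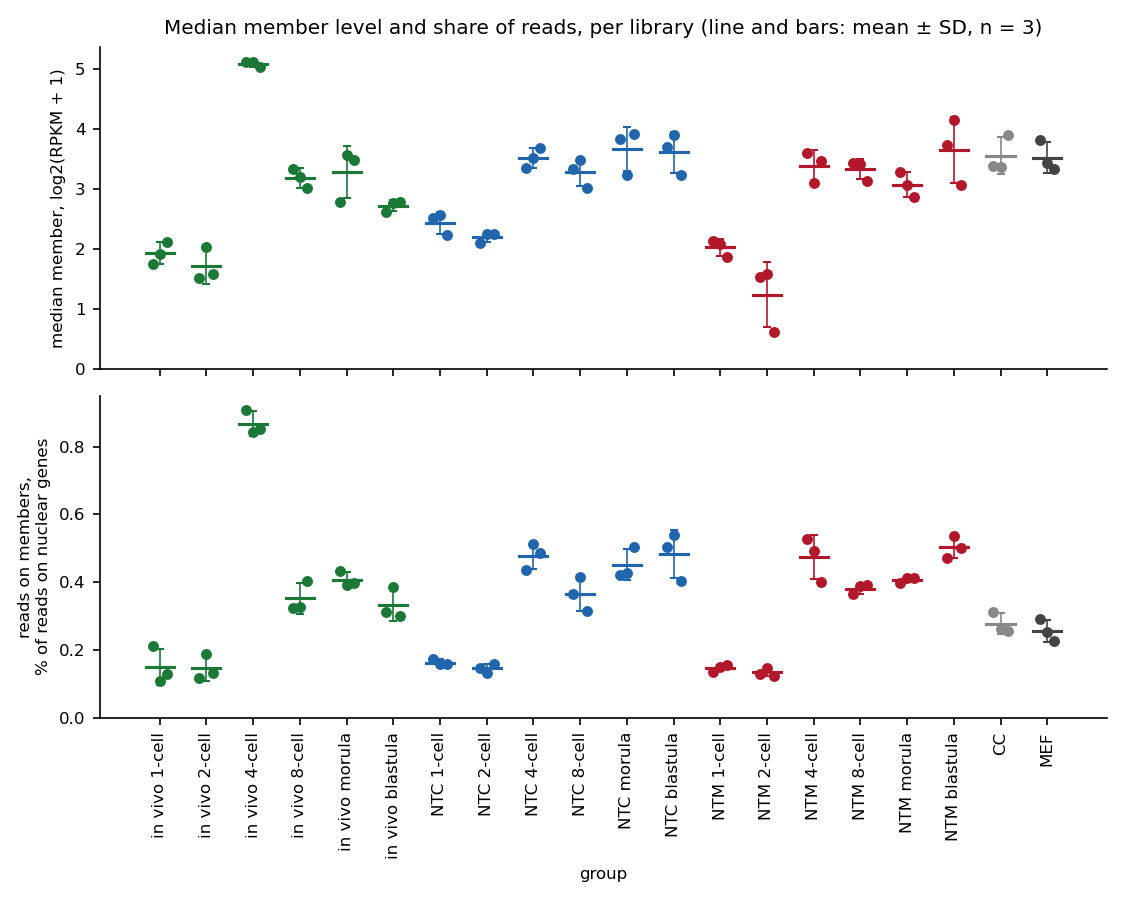
Median log2(RPKM + 1) over the 77 members (upper panel) and the percent of reads, mitochondrial genome left out, that fell on them (lower panel), in each library of the 20 groups. Each point is 1 library, with the mean ± SD of the group (n = 3). In the upper panel the in vivo 4-cell libraries sit at 5.02 to 5.12, above every other library, while the 1-cell and 2-cell libraries of all 3 embryo types lie at 2.56 or lower.

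The share of reads that fell on the members, with mitochondrial genome reads left out, was also highest in the in vivo 4-cell libraries. It was 0.843% to 0.910% in the in vivo 4-cell libraries, and between 0.108% and 0.539% in the other 57. Both subunits took part: at the in vivo 4-cell stage the median was 5.34 ± 0.05 for large subunit members and 4.87 ± 0.08 for small subunit members, and at the 2-cell stage it was 1.53 ± 0.28 and 1.65 ± 0.50. Of the 77 members, 47 (61.0%) had their highest embryo group mean in the in vivo 4-cell embryos, against 18.3% of the 17191 genes compared.

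**Figure D2:**
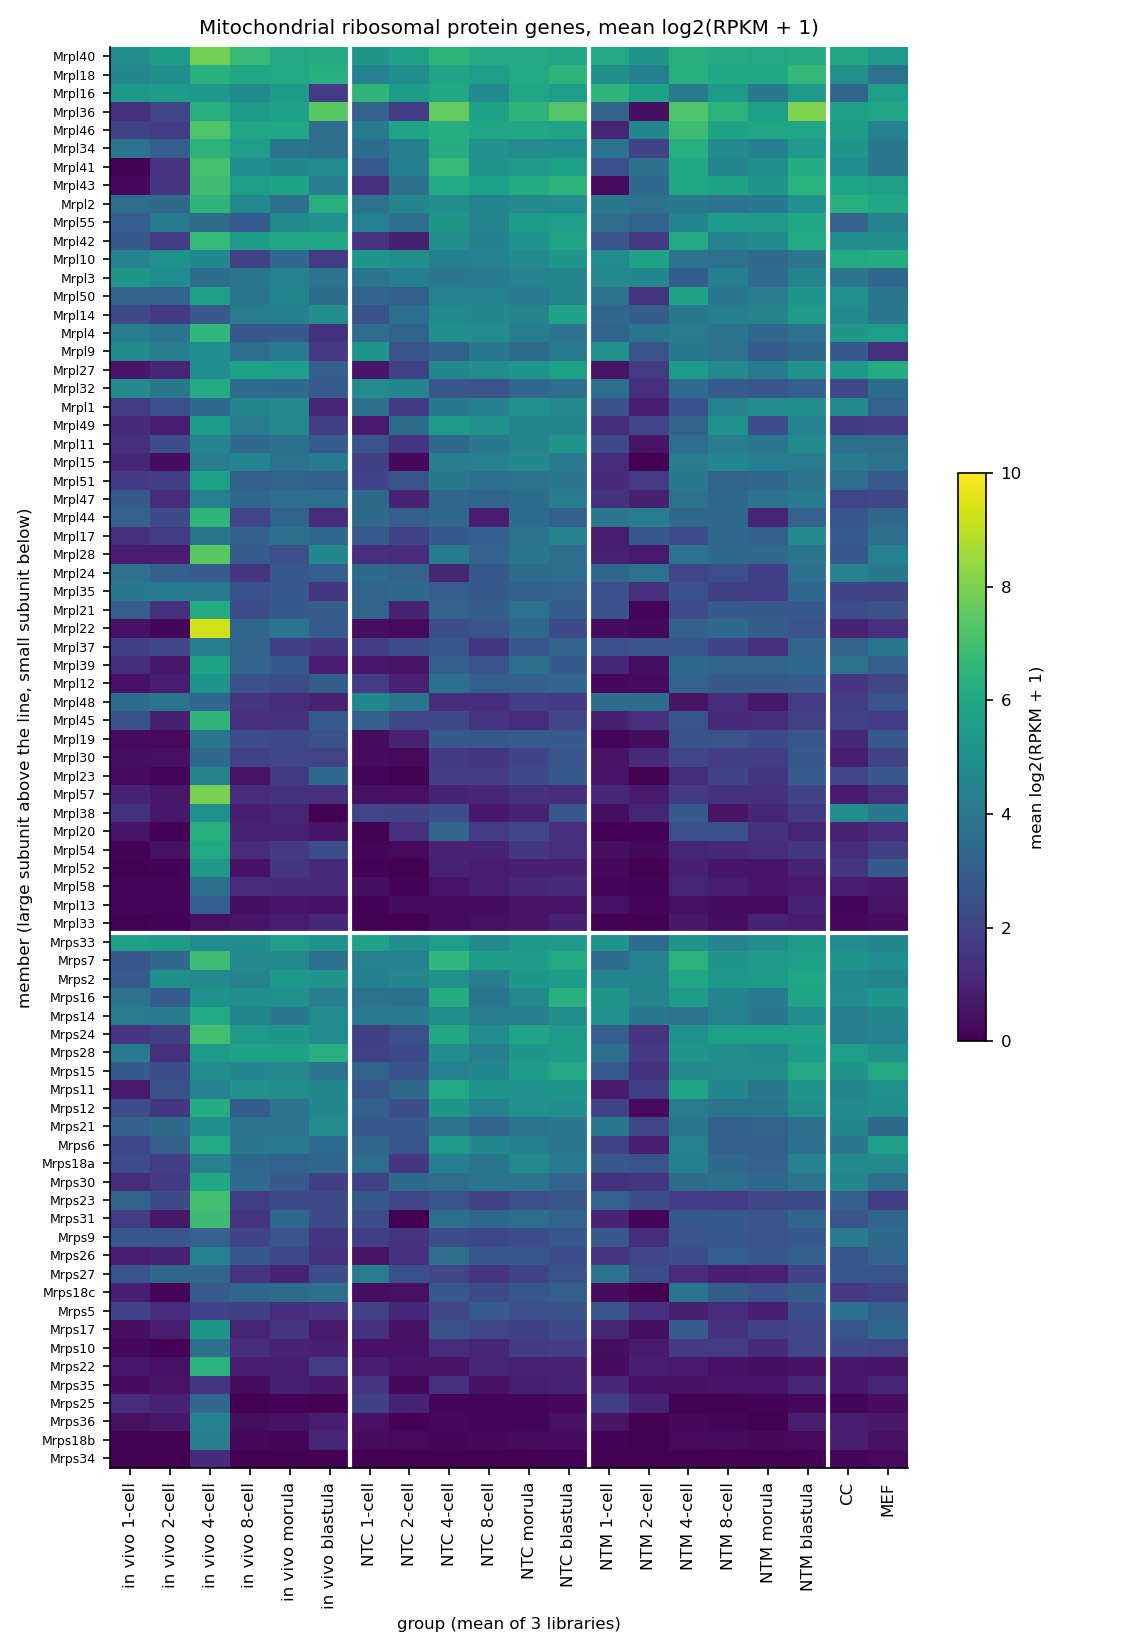
Mean log2(RPKM + 1) of each of the 77 members in each of the 20 groups (n = 3 libraries per group), with members in rows, large subunit above small subunit and each ordered by its mean over the embryo libraries, and groups in columns. Most members are low in the 1-cell and 2-cell columns, and the in vivo 4-cell column holds the highest value of 47 members.

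The members differed widely in level. Averaged over the 54 embryo libraries, the highest were Mrpl40 at a log2(RPKM + 1) of 6.04, Mrpl18 at 5.66, Mrpl16 at 5.20, Mrps33 at 5.11 and Mrpl36 at 5.08. Mrpl40 was abundant from the start, with 50.2, 17.2 and 29.7 RPKM in the in vivo 1-cell embryos and 35.4, 36.2 and 60.7 in the 2-cell embryos. Mrpl36 was not: its high mean came from the later stages. The lowest were Mrps34 at 0.075, Mrpl33 at 0.45, Mrps18b at 0.48, Mrpl13 at 0.53 and Mrps36 at 0.58.

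Many members were higher and a few lower after the 2-cell stage than at it. The promoters of 4 of them are shown to stand for these patterns: Mrpl36 and Mrpl27 as members that rose after the 2-cell stage, Mrpl32 as one that was lower after it in NTC embryos, and Mrpl22 as the member with the largest change in the in vivo 4-cell libraries. Each window runs from 250 bases before to 50 bases after the RefSeq start site, on the gene's strand, in GRCm38.p6. Capitals mark, on either strand, the letters searched for the ETS family (CCGGAAG), NRF1 (GCGCATGCG), YY1 (AAGATGGCG), SP factors (GGGCGG), the E-box (CACGTG) and the TATA box (TATAAA).
Mrpl36, chr13:73330759-73331058, plus strand: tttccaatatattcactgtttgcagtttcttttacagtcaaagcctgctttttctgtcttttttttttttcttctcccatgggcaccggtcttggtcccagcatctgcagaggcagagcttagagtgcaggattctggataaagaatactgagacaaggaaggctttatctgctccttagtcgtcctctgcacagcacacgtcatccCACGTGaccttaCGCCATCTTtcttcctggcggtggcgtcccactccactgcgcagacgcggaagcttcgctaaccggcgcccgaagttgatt
Mrpl27, chr11:94653541-94653840, plus strand: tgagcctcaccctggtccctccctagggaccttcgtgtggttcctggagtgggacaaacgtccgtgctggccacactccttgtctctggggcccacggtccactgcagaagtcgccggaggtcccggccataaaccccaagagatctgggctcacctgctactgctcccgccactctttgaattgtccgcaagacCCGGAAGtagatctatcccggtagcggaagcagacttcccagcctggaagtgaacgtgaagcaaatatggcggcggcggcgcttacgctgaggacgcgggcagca
Mrpl32, chr13:14612988-14613287, minus strand: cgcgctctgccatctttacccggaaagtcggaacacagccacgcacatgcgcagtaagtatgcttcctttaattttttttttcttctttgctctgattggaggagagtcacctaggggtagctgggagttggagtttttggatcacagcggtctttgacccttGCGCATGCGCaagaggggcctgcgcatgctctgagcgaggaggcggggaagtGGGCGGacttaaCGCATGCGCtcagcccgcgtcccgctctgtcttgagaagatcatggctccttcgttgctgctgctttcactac
Mrpl22, chr11:58171414-58171713, plus strand: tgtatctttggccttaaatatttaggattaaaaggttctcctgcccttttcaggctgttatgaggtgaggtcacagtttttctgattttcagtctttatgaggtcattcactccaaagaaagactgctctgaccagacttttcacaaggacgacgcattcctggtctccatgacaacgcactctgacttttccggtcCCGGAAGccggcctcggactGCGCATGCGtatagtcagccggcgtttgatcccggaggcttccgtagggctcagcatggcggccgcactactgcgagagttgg

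The Mrpl36 window holds E-box letters that start at base -43 and YY1 letters at -31, and the Mrpl27 window holds ETS letters at -55. The RefSeq window of Mrpl36 lies inside the annotated span of the gene, 73328513 to 73332178, and does not reach its first annotated base. In the Mrpl32 window, NRF1 letters start at -87, -86 and -23, the first pair being overlapping matches on the opposite strands, and SP letters at -35. The Mrpl22 window has ETS letters at -53 and NRF1 letters at -33. Of the 77 members, 68 matched a RefSeq promoter by symbol, and 25 of them (36.8%) hold the ETS letters, against 9.93% of the 27025 genes with a window. The NRF1 letters occur in 7 of the 68 (10.3%), against 1.95%, and the YY1 letters in 8 (11.8%), against 1.64%. For the SP letters the figures are 50% and 38.2%, for the E-box 7.35% and 8.09%, and for the TATA box 7.35% and 15.7%. The ETS and YY1 letters overlapped in 0 member windows, 35 members hold at least 1 of the ETS, NRF1 and YY1 letters, and the member windows have a median GC content of 58.5%, against 52.7% over all windows. These are matches of letters in a fixed window, and no binding was measured.

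From the 2-cell to the 4-cell stage in vivo, 60 of the 76 members tested were called higher and 1 lower, and the median change was 3.27 on the log2 scale, against 0.36 over all 12995 genes tested. The background for this step was high, with 31.4% of all genes called higher and 20.8% lower. In NTC embryos 34 of 70 members were higher and 3 lower, with a median of 1.47 against -0.20, where 16.4% of all genes were higher and 20.1% lower. In NTM embryos 23 of 70 were higher and 1 lower, with a median of 1.72 against -0.20 and backgrounds of 12.1% and 14.3%. The NTM count fell to 14, all higher, when NTM 2-cell replicate 2 was left out, and it was 21 higher and 4 lower with median-ratio scaling. Of the members called higher, 22 were shared by the 3 embryo types. That is 36.7% of the in vivo calls, 64.7% of the NTC calls and 95.7% of the NTM calls. How many of all genes were shared was not counted. A change of scaling moved the median of all genes by more than 0.1 in several comparisons, for this step in vivo from 0.36 to -0.21 with median-ratio scaling, while the members' median moved from 3.27 to 2.77.

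With the 8-cell stage as the end of the step, a comparison chosen after the data were seen, the 3 embryo types gave similar counts. In vivo, 27 of 68 members were higher and 2 lower, with a median of 1.17 against -0.89 over all genes and backgrounds of 13.8% and 27.8%. NTC embryos had 26 of 69 higher and 3 lower, with a median of 1.05 against -0.29 and backgrounds of 14.1% and 21.0%. NTM embryos had 29 of 69 higher and 2 lower, with a median of 1.17 against -0.42 and backgrounds of 17.9% and 21.9%. When the change itself was compared between NT and in vivo embryos in a fit of 4 groups, 0 of 70 members differed for NTC, where 0.219% of all genes did, and 0 of 69 for NTM, where 0.577% did. At an unadjusted p under 0.05 with the 2-fold limit kept, limma gave 11 members for NTC. Their change was larger than in vivo for 5 and smaller for 6. For NTM it gave 13, 10 larger and 3 smaller. Over all genes the same limits gave 1066 larger and 554 smaller of 12322 for NTC, and 1210 and 355 of 11790 for NTM. A missed threshold does not show that the changes were alike. The counts of each type depended on single libraries. In vivo they fell to 16 without 2-cell replicate 1, to 17 without 8-cell replicate 1 or 3 and to 13 without 8-cell replicate 2. For NTC they fell to 19, 17 and 18 without 2-cell replicates 1, 2 and 3, to 14 without 8-cell replicate 1 and to 16 without 8-cell replicate 2, and for NTM to 20 without 8-cell replicate 3. Leaving out in vivo 2-cell replicate 3 gave 1 member in each of the comparisons of changes.

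**Figure D3:**
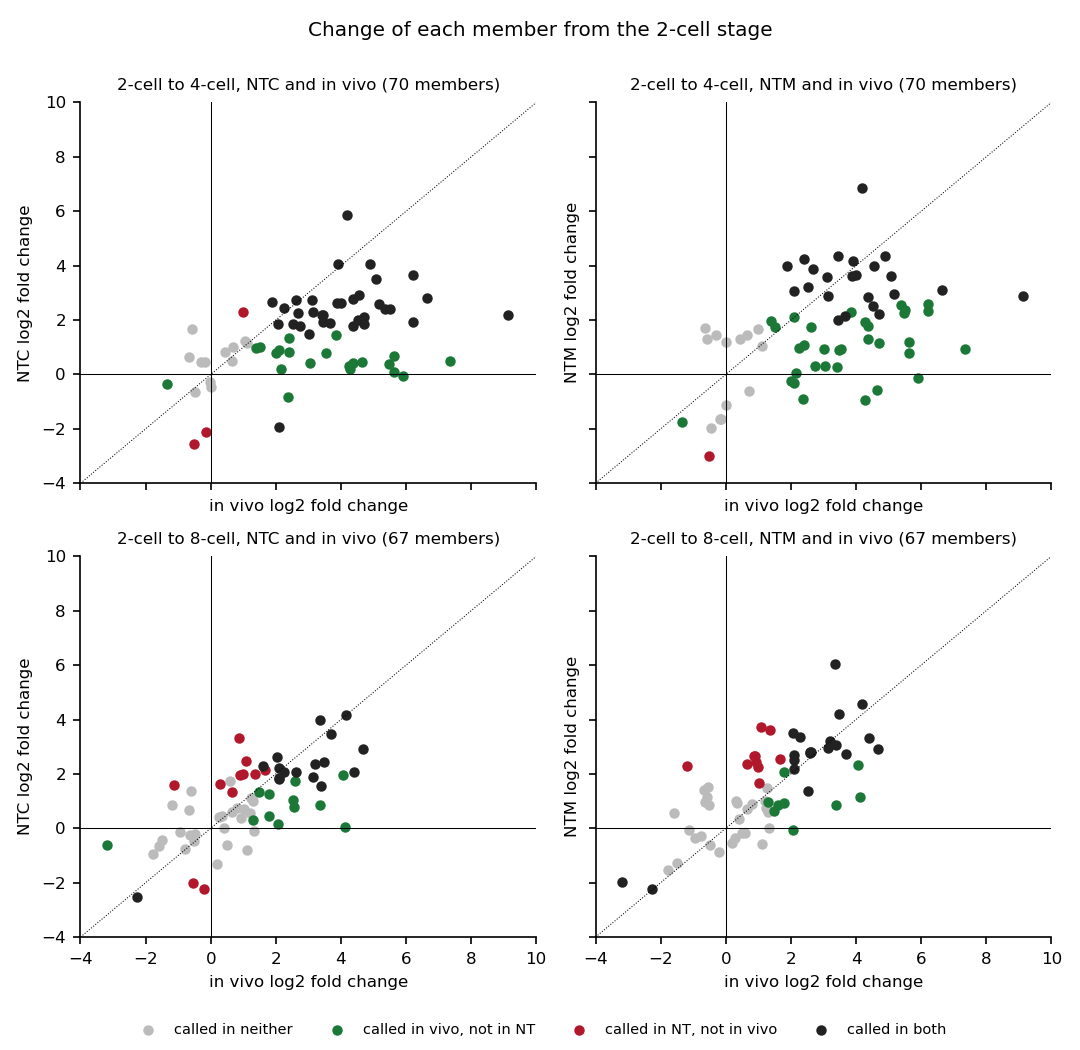
Change in mean log2(RPKM + 1) of each member tested from the 2-cell stage to the 4-cell and to the 8-cell stage, in vivo on the horizontal axis and NTC or NTM on the vertical axis; each point is 1 member tested in both types, coloured by whether it was called in 1 type, in both or in neither. The dotted diagonal marks an equal change. To the 4-cell stage most points lie below the diagonal, with a median in vivo of 3.27 against 1.47 in NTC and 1.72 in NTM, and to the 8-cell stage they lie on both sides of it.

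Called higher from the 2-cell to the 8-cell stage in all 3 embryo types were 15 members, which is 55.6% of the in vivo calls, 57.7% of the NTC calls and 51.7% of the NTM calls. They were Mrpl1, Mrpl15, Mrpl19, Mrpl22, Mrpl27, Mrpl28, Mrpl36, Mrpl39, Mrpl42, Mrpl47 and Mrpl49 of the large subunit and Mrps15, Mrps18c, Mrps24 and Mrps28 of the small subunit. Of the members higher at the 4-cell stage, 25 in vivo and, in NTC and NTM embryos, 25 and 21 were also higher at the 8-cell stage. None of these overlaps was counted over all genes, so whether they are particular to the members was not tested.

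Mrpl36, a small protein of the large subunit with a bacterial counterpart, had one of the largest rises in NT embryos. In NTM 2-cell embryos it had 0, 0.970 and 0.180 RPKM, in the 4-cell embryos 106, 185 and 177, and in the 8-cell embryos 106, 73.9 and 82.7. The 2-cell libraries lay far below all the later ones, and the change was 6.84 (SE 0.61, adjusted p = 0.000399) to the 4-cell and 6.04 (SE 0.45, adjusted p = 8.34e-05) to the 8-cell stage. In NTC embryos the 2-cell libraries had 7.53, 2.51 and 0.210 RPKM and the 4-cell libraries 237, 207 and 146, a change of 5.87 (SE 0.68, adjusted p = 0.000458). To the NTC 8-cell stage, at 35.2, 105 and 37.6 RPKM, it was 4.00 (SE 0.77, adjusted p = 0.0044), a call that was lost with no filter on low values. Mrpl36 lies on chromosome 13 at 73328513 to 73332178 (GRCm38) and shares 2.58% of its exon bases with Ndufs6.

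Mrpl15, which has a bacterial counterpart in the large subunit, was close to absent at the 2-cell stage and present after it in every embryo type. The in vivo 2-cell libraries had 0.702, 0.136 and 0 RPKM and the 8-cell libraries 20.7, 24.6 and 19.3, a change of 4.17 (SE 0.46, adjusted p = 0.000381). In NTC embryos it went from 0.0399, 0.0296 and 0.445 to 26.9, 23.2 and 12.1 RPKM, a change of 4.16 (SE 0.49, adjusted p = 0.000462). NTM 2-cell libraries had 0.0180, 0.0771 and 0.00951 RPKM and the NTM 8-cell libraries 25.1, 22.3 and 22.8, a change of 4.56 (SE 0.40, adjusted p = 0.00015). No 2-cell library came near the range of the 8-cell libraries. Its transcript is among the long ones of the set at 8487 bases and shares no exon base with another gene, and the 1-cell embryos still held 0.214 to 3.44 RPKM of it.

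Mrpl27, also a protein with a bacterial counterpart, had the largest in vivo change to the 8-cell stage. It had 1.58, 1.02 and 0.614 RPKM in the in vivo 2-cell and 66.0, 39.5 and 49.9 in the 8-cell embryos, a change of 4.67 (SE 0.46, adjusted p = 0.000261). The NTC 2-cell libraries were less uniform, at 13.2, 0 and 3.26 RPKM, and the 8-cell libraries had 33.1, 27.3 and 25.7. Here too the groups did not overlap.

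Mrps28 of the small subunit had 3.43, 0 and 3.09 RPKM in the in vivo 2-cell and 67.4, 35.7 and 66.0 in the 8-cell embryos, a change of 4.39 (SE 0.68, adjusted p = 0.00169). Unlike Mrpl36, it was not low in the in vivo 1-cell embryos, which had 26.9, 21.2 and 7.88 RPKM, above the 3.91, 1.60 and 3.63 of the NTC 1-cell embryos. Mrps24 had 3.24, 1.34 and 1.21 RPKM in NTM 2-cell and 43.3, 51.3 and 56.4 in NTM 8-cell embryos, a change of 4.19 (SE 0.44, adjusted p = 0.000319). It shares 15.4% of its exon bases with Urgcp.

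Mrpl42 had 0.763, 0.879 and 0.851 RPKM in the NTC 2-cell embryos and 27.4, 72.2 and 13.03 in the 4-cell embryos, a change of 4.07 (SE 0.63, adjusted p = 0.00156). By the NTC 8-cell stage it stood at 21.3, 18.8 and 17.2 RPKM, a change of 3.45 (SE 0.42, adjusted p = 0.000529). In NTM embryos its change to the 4-cell stage was 4.36 (SE 0.81, adjusted p = 0.00564), from 2.76, 5.67 and 0.242 to 74.4, 111 and 31.0 RPKM. In the same NTM step Mrpl34, a short large subunit gene with a bacterial counterpart, went from 7.83, 4.51 and 0.125 to 85.7, 80.8 and 67.4 RPKM. Its change was 4.37 (SE 0.82, adjusted p = 0.00566). The 2-cell and 4-cell libraries of both genes did not overlap.

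A few members went the other way and were lower after the 2-cell stage. Mrpl48, a large subunit protein found only in mitochondrial ribosomes, was the one called lower from the 2-cell to the 8-cell stage in all 3 embryo types. In vivo it had 13.5, 30.4 and 5.56 RPKM at the 2-cell and 2.04, 1.59 and 2.42 at the 8-cell stage, a change of -2.26 (SE 0.63, adjusted p = 0.0228). In NTC embryos it had 11.6, 13.6 and 14.7 and then 1.44, 1.77 and 1.31 RPKM, a change of -2.51 (SE 0.42, adjusted p = 0.00245). In NTM embryos 5.76, 19.3 and 10.2 RPKM were followed by 1.76, 2.36 and 0.624, a change of -2.23 (SE 0.56, adjusted p = 0.0155). The in vivo 4-cell libraries, at 9.40, 7.29 and 11.1 RPKM, had not followed the NT 4-cell libraries, of which NTC had 4.26, 1.41 and 0.159 and NTM 0.460, 0.0502 and 0.993. From the 2-cell to the 4-cell stage the change was -2.54 (SE 0.61, adjusted p = 0.0118) in NTC and -2.99 (SE 0.68, adjusted p = 0.0131) in NTM embryos. The in vivo and NTM calls at the 8-cell stage and the NTC call at the 4-cell stage were lost with no filter on low values. With a library left out, the in vivo 8-cell call was kept in 2 of 6 runs and the NTM 8-cell call in 4 of 6. A pseudogene copy, Mrpl48-ps, had a mean of 10.7 RPKM in the NTC 1-cell embryos, where Mrpl48 had 24.8, and how reads were divided between them was not tested.

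Mrpl10, which anchors the stalk of the large subunit, was lower at the 8-cell stage in vivo and in NTM embryos. In vivo it had 36.6, 19.3 and 56.5 RPKM at the 2-cell and 2.33, 0.226 and 13.1 at the 8-cell stage, a change of -3.19 (SE 0.90, adjusted p = 0.0232). This call was lost with no filter on low values and with nuclear reads only. NTM embryos went from 61.9, 101 and 23.7 to 14.2, 13.7 and 10.6 RPKM, a change of -1.98 (SE 0.56, adjusted p = 0.0255). The NTM call was lost under the same settings. With a library left out, the in vivo call was kept in 2 of 6 runs and the NTM call in 1 of 6. Neither in vivo nor in NTM embryos did the groups overlap. NTC 8-cell libraries, at 6.36, 40.7 and 28.3 RPKM, overlapped the 2-cell libraries at 33.1, 21.7 and 39.4, with a change of -0.60 (SE 0.66, adjusted p = 0.483). Mrpl12, which binds Mrpl10 in the stalk, went in the opposite direction: its 2-cell to 8-cell change was 2.14 (SE 0.46, adjusted p = 0.00709) in NTC and 2.53 (SE 0.47, adjusted p = 0.004) in NTM embryos, and in vivo it was 1.68 (SE 0.59, adjusted p = 0.0519). In NTM embryos Mrpl12 had 0.799, 0.0474 and 0 RPKM at the 2-cell and 4.69, 6.09 and 8.05 at the 8-cell stage.

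Mrpl32, a large subunit protein that the mitochondrial m-AAA protease matures, was lower in NTC embryos after the 2-cell stage. The NTC 2-cell libraries had 30.0, 22.5 and 17.95 RPKM, the 4-cell libraries 2.73, 8.90 and 5.59 and the 8-cell libraries 2.05, 7.46 and 7.18. The change was -1.94 (SE 0.50, adjusted p = 0.0164) to the 4-cell stage and -2.01 (SE 0.53, adjusted p = 0.0193) to the 8-cell stage. Both calls were lost with no filter on low values, the one at the 8-cell stage also with nuclear reads only. The NTM 2-cell embryos held less of it from the outset, at 3.85, 1.70 and 0.315 RPKM. In the in vivo 4-cell libraries Mrpl32 stood at 74.1, 82.8 and 57.4 RPKM, above the 2-cell libraries at 14.3, 22.7 and 11.7.

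Mrpl24 was lower in NTC 4-cell than in NTC 2-cell embryos, at 0.697, 2.88 and 0.389 against 9.20, 10.8 and 5.19 RPKM, a change of -2.12 (SE 0.57, adjusted p = 0.0191) that was lost with no filter on low values; it shares 26.3% of its exon bases with Rrnad1. Mrpl3, which lies near the peptidyl transferase centre, was the member called lower from the 2-cell to the 4-cell stage in vivo, from 17.46, 34.3 and 38.0 to 9.79, 10.1 and 12.2 RPKM. The change was -1.34 (SE 0.41, adjusted p = 0.0277) and the call was lost with no filter on low values and with a replicate block. With a library left out, this call and that of Mrpl24 were each kept in 2 of 6 runs. Mrpl44, which has an RNase III-like fold, was lower at the NTC 8-cell than at the NTC 2-cell stage. It had 2.50, 0.327 and 0.114 against 12.6, 7.48 and 3.79 RPKM, a change of -2.25 (SE 0.63, adjusted p = 0.0243). This call was lost with no filter on low values and was kept in 2 of 6 runs with a library left out. In the in vivo 4-cell libraries Mrpl44 stood at 81.4, 95.4 and 102 RPKM, more than 4-fold above every other group.

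**Figure D4:**
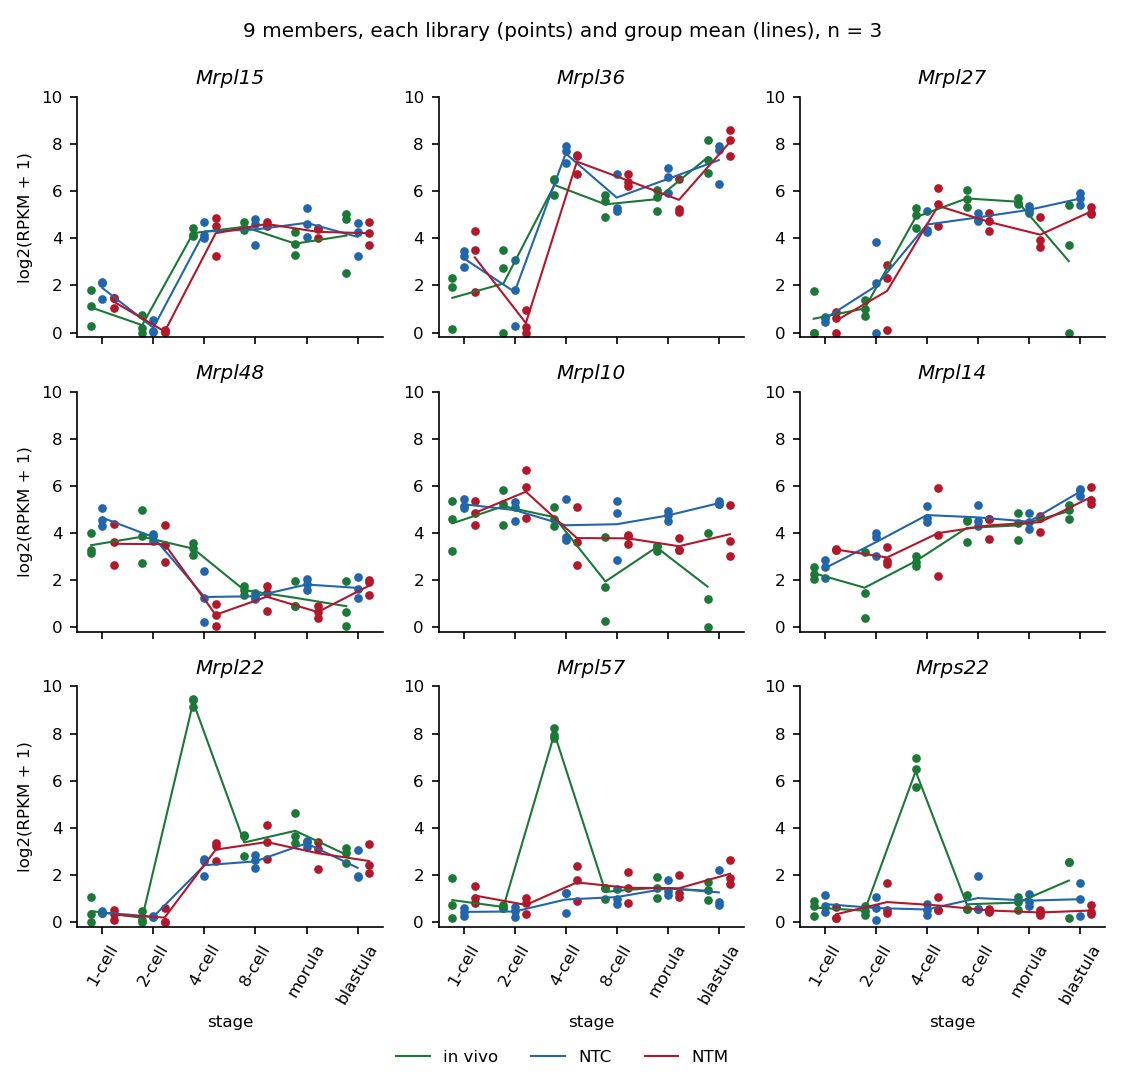
log2(RPKM + 1) of 9 members by stage in in vivo, NTC and NTM embryos; each point is 1 library, and the lines join group means (n = 3). Mrpl15, Mrpl36 and Mrpl27 are higher at the 8-cell than at the 2-cell stage in all 3 embryo types, Mrpl48 is lower, and Mrpl22, Mrpl57 and Mrps22 peak in the in vivo 4-cell libraries.

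In the in vivo 4-cell libraries, 73 members had a mean of at least 5 RPKM. Of these, 17 stood more than 4-fold above each of the other 19 groups, beside 562 of all 5473 genes at that level (10.3%). No other group had any such member. Of the large subunit the 17 held Mrpl13, Mrpl20, Mrpl21, Mrpl22, Mrpl28, Mrpl39, Mrpl44, Mrpl45, Mrpl52, Mrpl54, Mrpl57 and Mrpl58. Of the small subunit they held Mrps18b, Mrps22, Mrps23, Mrps31 and Mrps36. These genes were picked out by their values, so the list is a description. Exon bases are shared with another gene by 5 of the 17 and by 32 of the 77. The median length is 1664 bases against 1848 over all members. From the 2-cell to the 8-cell stage in vivo 3 of the 17 were called higher. In that step 27 of the 68 members tested and 13.8% of all genes tested were. How many of the 17 were tested is not given here.

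Mrpl22, a protein that lines the exit tunnel of the large subunit, had 689, 554 and 698 RPKM in the in vivo 4-cell libraries. In the in vivo 2-cell libraries it had 0.383, 0.0734 and 0, and in the 8-cell libraries 11.6, 12 and 5.97 RPKM. The NTC 4-cell libraries had 5.13, 2.93 and 5.37 and the NTM 4-cell libraries 9.43, 8.55 and 5.09 RPKM. The in vivo 4-cell values were thus the only ones above 23.8 RPKM among the 60 libraries. Its change from the 2-cell to the 4-cell stage in vivo was 9.14 (SE 0.33, adjusted p = 1.77e-05).

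Mrpl57, a large subunit protein without a bacterial counterpart, had 299.5, 248 and 223 RPKM in the in vivo 4-cell libraries and at most 5.28 in all other libraries. Its in vivo change from the 2-cell to the 4-cell stage was 7.35 (SE 0.33, adjusted p = 1.84e-05) and it fell by 6.71 (SE 0.31, adjusted p = 1.58e-05) to the 8-cell stage. Mrpl28 had 238, 166 and 133 RPKM there, after 0.548, 1.02 and 0.712 at the 2-cell stage, a change of 6.64 (SE 0.37, adjusted p = 2.77e-05). After the 4-cell stage Mrpl28 had 7.90, 5.79 and 5.95 RPKM in the in vivo 8-cell and 13.7, 35.5 and 28.5 in the in vivo blastula libraries. Both genes were above their in vivo 2-cell libraries in every later in vivo library, Mrpl57 at 1.72, 0.998 and 1.71 RPKM at the 8-cell stage after 0.509, 0.527 and 0.678.

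Mrps22, a small subunit protein found only in mitochondrial ribosomes, had 53.1, 89.4 and 123 RPKM in the in vivo 4-cell libraries and no more than 4.95 in any other library. It was lower at the in vivo 8-cell stage, at 0.473, 1.26 and 0.475 RPKM, a change of -5.64 (SE 0.43, adjusted p = 7.28e-05). Mrps36, which is counted among the small subunit proteins by name but belongs to the oxoglutarate dehydrogenase complex, had 31.6, 14.8 and 20.5 RPKM there and at most 1.93 elsewhere. Mrpl52 was at 39.3 RPKM in the middle library of that group and at 0 in all libraries of the in vivo 1-cell, NTC 2-cell and NTM 2-cell groups.

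Between NTC and in vivo 4-cell embryos, 40 of the 76 members tested were lower in NTC and 5 higher, with a median of -1.18 against -0.39 over all genes and backgrounds of 20.4% lower and 7.40% higher. Between NTM and in vivo embryos 31 of 76 were lower and 1 higher, with a median of -1.58 against -0.69 and backgrounds of 17.8% and 3.33%. Both comparisons share the in vivo libraries. The first count fell to 29 without any 1 of the in vivo 4-cell replicates, and the second to 20 without in vivo 4-cell replicate 2 or 3. With nuclear reads only, 27 members were lower and 6 higher in NTC, with a median of -0.76 against -0.06 over all genes. In NTM embryos 21 were then lower and 3 higher, with a median of -1.14 against -0.38. The lowest in NTC relative to in vivo embryos were Mrpl57, at -7.03 (SE 0.36, adjusted p = 5.33e-06), Mrpl22, at -6.91 (SE 0.29, adjusted p = 3.79e-06), and Mrps22, at -5.86 (SE 0.42, adjusted p = 3.04e-05). For NTM embryos they were Mrpl57 at -6.31 (SE 0.49, adjusted p = 0.000279), Mrpl22 at -6.25 (SE 0.36, adjusted p = 0.000142) and Mrps22 at -5.69 (SE 0.51, adjusted p = 0.000468).

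The members that were higher in NT 4-cell embryos changed less. Mrpl14 had 24.3, 21.3 and 34.6 RPKM in NTC and 7.05, 5.94 and 5.16 in in vivo 4-cell embryos, a difference of 1.96 (SE 0.35, adjusted p = 0.00394). For Mrps11 the values were 60.9, 106 and 48.0 against 19.0, 19.0 and 20.1 RPKM, a difference of 1.75 (SE 0.35, adjusted p = 0.00596). Mrps11 and Mrpl46 are neighbours in opposite orientation on chromosome 7 and share exon bases, 7.97% of those of Mrps11, and Mrpl46 went the other way, at 53.98, 74.7 and 103 in NTC against 157, 150 and 145 RPKM in vivo. Mrpl55 was higher in NTC 4-cell embryos by 1.76 (SE 0.49, adjusted p = 0.0268), with values of 62.4, 18.3 and 46.2 against 10.8, 7.38 and 14.1 RPKM. Mrps2, whose bacterial counterpart sits in the small subunit, was higher in NTM embryos, at 58.6, 60.7 and 61.3 against 23.3, 22.5 and 29.3 RPKM, by 1.24 (SE 0.36, adjusted p = 0.0432). With 1 fit over all 20 groups the calls of Mrps11, Mrpl55 and Mrps2 were lost. That of Mrpl55 was also lost with no filter on low values and that of Mrps2 also with a replicate block. With a library left out, the calls of Mrpl55 and Mrps2 were each kept in 1 of 6 runs and that of Mrps11 in 6 of 6.

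From the 4-cell to the 8-cell stage in vivo, 52 of the 76 members were lower and 1 higher, against backgrounds of 39.3% and 4.40%. The median was -1.59 against -1.05 over all genes. The split was 31 lower and 6 higher with median-ratio scaling. With nuclear reads only it was 37 lower and 4 higher, with a median of -1.13 against -0.84. The member called higher in the first count was Mrpl14, from 7.05, 5.94 and 5.16 to 11.3, 22.4 and 21.6 RPKM. Its change was 1.41 (SE 0.39, adjusted p = 0.0208), a call that was lost with no filter on low values. Mrpl22 fell by 5.95 (SE 0.31, adjusted p = 1.75e-05). In the same step limma called 0 of 71 members in NTC and 0 of 70 in NTM embryos, where it called few genes at all, 0.0564% and 0.363% of those tested in either direction, so these counts say nothing particular to the members. At an unadjusted p under 0.05 in limma and the 2-fold limit, 1 was higher and 9 lower in NTC. In NTM 2 were higher and 7 lower. The same limits gave 408 higher and 683 lower of all 10634 genes in NTC, and 414 and 651 of 9632 in NTM. The medians of the large and small subunit members were -0.18 and -0.68 in NTC and -0.23 and -0.36 in NTM.

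The change between stages was then compared between embryo types directly. From the 2-cell to the 4-cell stage the change was smaller in NTC than in vivo for 25 of 75 members and larger for 0, where it was smaller for 12% of all genes, and for NTM 17 of 75 were smaller and 0 larger, against 8.05%. From the 4-cell to the 8-cell stage it was larger in NTC for 26 of 75 members and smaller for 1, against 17.0% and 2.49% of all genes, and larger in NTM for 28 of 75 and smaller for 0, against 16.5%. All 4 comparisons use the same in vivo 4-cell libraries. The largest differences were again those of Mrpl57, Mrpl22 and Mrps22, between -6.96 and -5.97 for the step to the 4-cell stage in NTC and between -6.40 and -6.05 in NTM. The member with a smaller 4-cell to 8-cell change in NTC was Mrps16, which has a bacterial counterpart in the small subunit. It went from 62.4, 96.6 and 58.6 to 10.6, 16.9 and 13.5 RPKM in NTC. In vivo it went from 33.6, 33.7 and 36.0 to 21.5, 22.9 and 57.2 RPKM. The difference in change was -2.14 (SE 0.58, adjusted p = 0.0204). With nuclear reads only, the change to the 4-cell stage was smaller for 19 members in NTC and for 15 in NTM. For the step to the 8-cell stage, 20 were then larger and 2 smaller in NTC, and 21 larger and 1 smaller in NTM.

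Between the 1-cell and 2-cell stages few members were called. In NTC embryos 2 of 63 were higher and 6 lower, against 4.53% and 8.95% of all genes, and in NTM embryos 1 of 63 was higher and 2 lower, against 2.72% and 6.68%. These splits were not stable. With median-ratio scaling they became 5 higher and 4 lower in NTC and 1 higher and 0 lower in NTM, and with nuclear reads only 1 and 1 in NTM. In NTC the count was 4 without 1-cell replicate 1 or 2 and 1 without replicate 3, and in NTM it was 0 without any 1 of the 1-cell replicates. In vivo limma called 0 of 62 members and also 0 of all 10854 genes tested in this step (0%). At an unadjusted p under 0.05 and the 2-fold limit, 1 member was higher and 1 lower, beside 382 and 230 of all genes. This step is counted with the other stage transitions.

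Mrpl46, a large subunit protein found only in mitochondrial ribosomes, was called higher at the 2-cell stage in both NT types. The NTC 1-cell libraries had 14.5, 12.6 and 22.9 RPKM and the 2-cell libraries 62.5, 45.4 and 62.9, a change of 1.74 (SE 0.30, adjusted p = 0.00767). In NTM embryos it went from 4.49, 0.430 and 0.0856 to 61.8, 6.73 and 29.8 RPKM, a change of 3.59 (SE 0.90, adjusted p = 0.041). The in vivo libraries overlapped, with 0, 8.64 and 4.99 RPKM at the 1-cell and 3.38, 0.153 and 6.80 at the 2-cell stage. Mrpl49 was higher at the NTC 2-cell stage, at 10.8, 6.36 and 16.7 against 0.0574, 2.48 and 0.223 RPKM, a change of 2.80 (SE 0.58, adjusted p = 0.0149).

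Mrpl9, which has a bacterial counterpart in the large subunit, was lower at the 2-cell stage in both NT types. NTC embryos had 29.6, 35.1 and 49.1 RPKM at the 1-cell and 2.19, 10.1 and 5.38 at the 2-cell stage, a change of -2.65 (SE 0.47, adjusted p = 0.008). NTM embryos went from 30.7, 29.4 and 40.0 to 1.55, 12.9 and 5.05 RPKM, a change of -2.51 (SE 0.63, adjusted p = 0.0407), a call that was lost under 4 of the 7 other settings. In vivo it had 27.2, 29.1 and 22.1 RPKM at the 1-cell and 23.4, 9.53 and 22.5 at the 2-cell stage. Mrpl47 and Mrps31 were lower at the NTC 2-cell stage, by -2.45 (SE 0.46, adjusted p = 0.00989) and -2.36 (SE 0.50, adjusted p = 0.0161), and Mrpl21 at the NTM 2-cell stage by -2.38 (SE 0.60, adjusted p = 0.0423). Mrps31 was at 0, 0.0545 and 0 RPKM in the NTC 2-cell libraries after 1.87, 5.68 and 6.39 at the 1-cell stage. With no filter on low values none of these NTC and NTM calls was kept.

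The other 9 stage transitions together gave 5 calls, all higher, in 634 member tests, where 1.43% of all gene tests were called in either direction. Their medians lay between -0.36 and 0.62. By limma 67 member tests had an unadjusted p under 0.05 and a change of at least 2-fold. Gene tests at those limits were not summed over these 9 comparisons. The 5 calls were in the step from morula to blastula of NT embryos. Mrps16 rose by 1.59 in NTC, from 17.9, 26.9 and 35.6 to 64.0, 116 and 68.0 RPKM, and by 1.76 in NTM, from 18.4, 14.8 and 15.1 to 86.8, 45.6 and 45.6 RPKM. Mrpl14 rose by 1.27 in NTC, and Mrpl36 by 2.45 and Mrpl49 by 2.06 in NTM embryos. The total was 9 without NTM blastula replicate 3, and 2 or 3 without any other NT morula or blastula library.

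Outside the 4-cell and blastula stages, 8 comparisons of NT with in vivo embryos gave 2 calls in 525 member tests, against 0.772% of all gene tests. By limma 65 member tests had an unadjusted p under 0.05 and a change of at least 2-fold. Gene tests at those limits were not summed over these 8 comparisons. Mrpl41 was higher by 2.87 in NTC than in in vivo 1-cell embryos, at 8.46, 9.12 and 3.37 against 0, 0.0740 and 0 RPKM. Mrpl55 was higher by 2.58 in NTM 8-cell embryos than in their in vivo counterparts, at 49.0, 40.6 and 41.9 against 4.08, 17.2 and 3.52 RPKM. The total was 16 without in vivo 1-cell replicate 1 and 4 without in vivo 2-cell replicate 3. It was 1 without in vivo 1-cell replicate 2 or 3, in vivo 8-cell replicate 1 or 3, or any 1 of the NTC 1-cell and NTM 8-cell libraries. The medians of the 8 comparisons ran from -0.11 to 0.36.

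At the blastula stage, 3 of 74 members were higher in NTC than in vivo and 0 lower, against 8.81% of all genes called higher, and the median of 0.62 lay below that of all genes, 0.85. Mrpl16, among the most abundant members elsewhere, had 0.908, 11.46 and 0.698 RPKM in the in vivo blastulas and 42.1, 54.1 and 45.3 in the NTC blastulas, a difference of 3.80 (SE 0.89, adjusted p = 0.0421). Mrpl1 had 5.71, 0.136 and 0.243 against 23.6, 38.2 and 18.1 RPKM, a difference of 3.64 (SE 0.86, adjusted p = 0.0431). Mrpl38 was at 0.0499, 0 and 0 RPKM in vivo and at 6.15, 4.14 and 6.99 in NTC, a difference of 2.71 (SE 0.48, adjusted p = 0.0273). The calls of Mrpl16 and Mrpl1 were lost with no filter on low values, with median-ratio scaling and with a replicate block, the last of which also lost that of Mrpl38. The count was 1 without NTC blastula replicate 1 or 3 and 0 without replicate 2. Between NTM and in vivo blastulas limma called 0 of 75 members and 0.746% of all genes in either direction. At an unadjusted p under 0.05 and the 2-fold limit, 10 members were higher in NTM and 0 lower. Of all 9380 genes, 2194 were higher and 222 lower at those limits, so members were not higher more often than all genes. The count of calls was 1 without in vivo blastula replicate 1 and 2 without NTM blastula replicate 3. The in vivo blastula libraries were also the least alike in their member profiles, with correlations of 0.512 to 0.606 among the 3, against 0.945 to 0.953 among the NTC blastulas.

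Between NTM and NTC embryos, which differ in the donor cell, members were called at the 1-cell stage and at no later one. Of 61 members tested at the 1-cell stage, 5 were higher in NTM and 8 lower, against 5.64% and 14.2% of all genes. The median was -0.36 against -0.19. These counts lie near the shares of all genes, so they say nothing particular to the members. All 5 higher members belonged to the small subunit, of which 24 were tested, and all 8 lower members to the large subunit, of which 37 were tested; the medians of the subunits were alike at -0.37 and -0.36, and the split itself was not tested. The count was 8 without NTC 1-cell replicate 1 or 2 or NTM 1-cell replicate 3, and 7 without NTC 1-cell replicate 3.

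Mrps16 had 44.4, 32.4 and 37.4 RPKM in NTM and 10.7, 12.5 and 14.6 in NTC 1-cell embryos, a difference of 1.52 (SE 0.23, adjusted p = 0.00283). Mrps28 was higher in NTM embryos by 1.66 (SE 0.36, adjusted p = 0.0123), at 9.74, 9.51 and 15.6 against 3.91, 1.60 and 3.63 RPKM, and Mrps21 by 1.31 (SE 0.38, adjusted p = 0.0356), at 18.3, 11.7 and 17.1 against 8.16, 2.89 and 7.16. The ranges of NTM and NTC did not overlap for any of these genes. In the large subunit, Mrpl46 was lower in NTM by -3.07 (SE 0.59, adjusted p = 0.00712), at 4.49, 0.430 and 0.0856 against 14.5, 12.6 and 22.9 RPKM. Mrpl45, which is found only in mitochondrial ribosomes, was lower by -2.22 (SE 0.39, adjusted p = 0.00484), at 0.952, 1.49 and 0.233 against 10.01, 5.83 and 7.12 RPKM. Mrpl17 was lower by -2.12 (SE 0.44, adjusted p = 0.0105), at 0.765, 1.65 and 0.102 against 6.19, 9.93 and 4.34 RPKM. The 3 small subunit calls were lost with 1 fit over all 20 groups, those of Mrps28 and Mrps21 also with no filter on low values, as were those of Mrpl46 and Mrpl17, while the Mrpl45 call was kept under all 7 other settings. From the 2-cell stage to the blastula, 5 comparisons of NTM with NTC embryos gave 0 calls by limma in 348 member tests, against 0.00979% of all gene tests. At an unadjusted p under 0.05 in limma and the 2-fold limit there were 25, of which 2 were higher and 23 lower in NTM. Of the 23, 14 were at the morula stage, where 1237 of all 9186 genes were lower and 103 higher. Gene tests at those limits were not summed over these 5 comparisons.

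Between the donor cells themselves, MEFs against CCs, 0 of 73 members were called, against 6.29% of all genes in either direction. At an unadjusted p under 0.05 and the 2-fold limit, limma gave 1 member higher and 2 lower in MEFs. Of all 11978 genes it gave 1307 higher and 811 lower. The median difference was 0.04, against 0.19 over all genes.

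The 1-cell NT embryo and its donor cell were far apart. In NTC 1-cell embryos, 33 of 72 members were lower than in CCs and 7 higher, against 20.8% and 29.3% of all genes, with a median of -1.05 against 0.16. In NTM 1-cell embryos, 36 of 71 were lower than in MEFs and 3 higher, against 29.9% and 25.2%, with a median of -1.34 against -0.53. A set of 25 members was lower than in the donor in both NT types, and Mrps25 was higher in both. The overlap was not counted over all genes, so it has no background to be read against. The fibroblast markers, which summed to at least 4438 RPKM in MEFs, came to 0.0423 to 1.01 in NTM 1-cell embryos, and the cumulus markers to 0.0432 to 2.25 in NTC 1-cell embryos.

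Mrpl27 had the largest difference in both. CCs had 24.3, 45.2 and 53.3 RPKM and NTC 1-cell embryos 0.602, 0.382 and 0.545, a difference of -4.73 (SE 0.36, adjusted p = 0.000172). MEFs had 93.3, 55.2 and 68.8 and NTM 1-cell embryos 0.860, 0.550 and 0, a difference of -5.66 (SE 0.37, adjusted p = 3.11e-05). Mrpl43 followed, at -4.44 (SE 0.79, adjusted p = 0.00495) in NTC and -5.38 (SE 0.37, adjusted p = 4e-05) in NTM; it overlaps Twnk, the mitochondrial DNA helicase gene, over 33.4% of its exon bases. Mrps28 was lower in NTC embryos by -3.62 (SE 0.63, adjusted p = 0.00448), and Mrps11 in NTM embryos by -4.31 (SE 0.70, adjusted p = 0.00191). At the 8-cell stage Mrpl27 stood at 25.7 to 33.1 RPKM in NTC and at 18.8 to 32.3 in NTM embryos.

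Some members were higher in the 1-cell embryo than in its donor cell, among them Mrpl48 and Mrpl32, which were lower in NTC embryos after the 2-cell stage. Mrpl48 was higher in NTC embryos than in CCs, at 32.9, 22.6 and 18.9 against 3.42, 2.70 and 1.55 RPKM, by 2.86 (SE 0.35, adjusted p = 0.00109). Mrpl32 was higher by 2.69 (SE 0.34, adjusted p = 0.00121), at 40.2, 19.8 and 25.0 against 2.82, 3.87 and 3.47 RPKM. Mrps25 had 2.65, 2.75 and 2.89 RPKM in NTC 1-cell embryos and at most 0.212 in CCs, a difference of 1.74 (SE 0.25, adjusted p = 0.00207). In NTM embryos its values were 2.72, 2.77 and 2.22 against at most 0.318 RPKM in MEFs, a difference of 1.503 (SE 0.32, adjusted p = 0.00607), but 69.8% of its exon bases are shared with Nr2c2. Mrpl9 was higher in NTM embryos than in MEFs by 3.71 (SE 1.08, adjusted p = 0.024), and the MEFs ranged from 0 to 16.1 RPKM. That call was lost with no filter on low values and was kept in 1 of 6 runs with a library left out. Mrpl3 was higher than in MEFs by 1.34 (SE 0.47, adjusted p = 0.0472), a call that 4 of the 7 other settings did not give. The Mrpl3 call too was kept in 1 of 6 runs with a library left out.

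**Figure D5:**
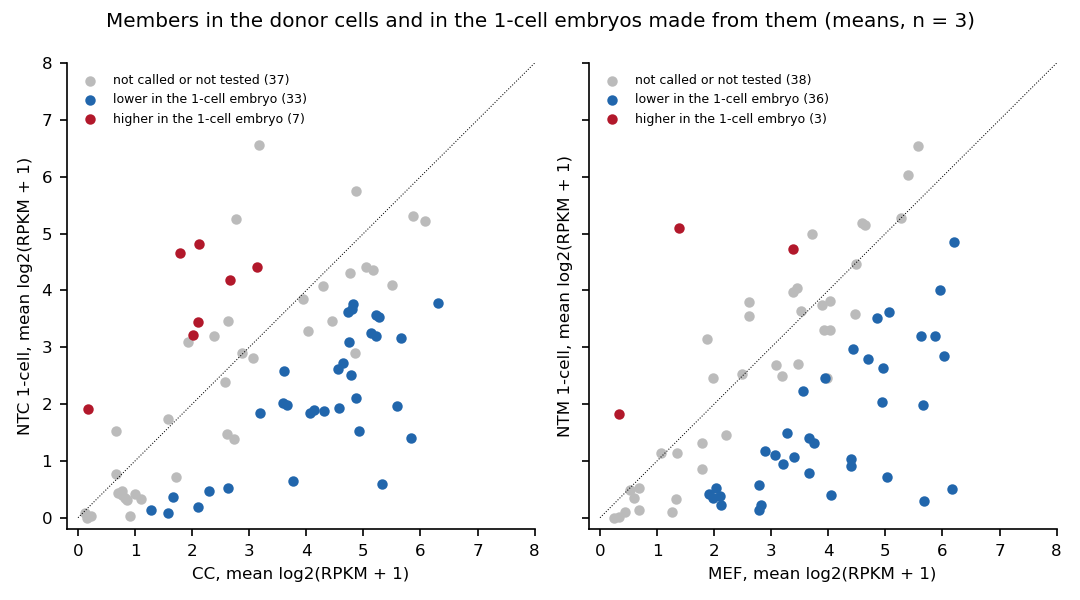
Mean log2(RPKM + 1) of each member in the donor cell, on the horizontal axis, and in the 1-cell NT embryo made with it, on the vertical axis, for CCs with NTC and for MEFs with NTM; each point is 1 member and n = 3 libraries per group. Of the members tested, 33 of 72 are called lower in NTC and 36 of 71 in NTM, and these lie below the diagonal, with Mrpl27 and Mrpl43 far below it in both.

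The members with the best known roles in the mitoribosome did not move as 1 block after the 2-cell stage. Mrps12, a protein of the decoding centre, was higher at the 8-cell stage in NTC embryos by 1.99 (SE 0.66, adjusted p = 0.0464) and in NTM embryos by 3.60 (SE 0.45, adjusted p = 0.000683), while the in vivo value was 1.35 (SE 0.80, adjusted p = 0.2). Mrpl11, of the region that activates the GTPases of translation, was higher by 2.46 (SE 0.58, adjusted p = 0.0117) in NTC and 3.73 (SE 0.53, adjusted p = 0.00115) in NTM, with 1.08 (SE 0.60, adjusted p = 0.179) in vivo. For Mrps16 the order was the reverse, with 2.07 (SE 0.63, adjusted p = 0.0304) in vivo and values of 0.15 in NTC and -0.07 in NTM. The test of the difference in change called none of these. Mrps14 was already present in in vivo 1-cell embryos, at 34.6, 11.62 and 14.3 RPKM, with 10.7, 16.1 and 24.7 in 2-cell embryos, and at the 8-cell stage it had 22.4, 23.0 and 20.6; its 2-cell to 8-cell values were 0.41 in vivo and, for NTC and NTM, 0.01 and 0.35, with adjusted p of 0.467, 0.982 and 0.513. Mrpl58, a peptidyl-tRNA hydrolase that frees stalled mitoribosomes, had 12.7, 10.1 and 12.02 RPKM in the in vivo 4-cell libraries and at most 1.70 in any other.

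The 3 paralogs Mrps18a, Mrps18b and Mrps18c, which go back to 1 bacterial protein and of which Mrps18a sits in the large subunit, had separate patterns. Mrps18a was present at every stage and was higher at the 8-cell than at the 2-cell stage by 1.61 (SE 0.48, adjusted p = 0.0283) in vivo and 2.30 (SE 0.63, adjusted p = 0.0217) in NTC, with 0.86 (SE 0.59, adjusted p = 0.271) in NTM embryos. Mrps18c was listed at 0 in all NTM 2-cell libraries and at 4.02, 6.37 and 11.6 RPKM in the NTM 8-cell libraries; its change was 3.13 (SE 0.46, adjusted p = 0.00139) in vivo, 1.88 (SE 0.53, adjusted p = 0.024) in NTC and 2.96 (SE 0.49, adjusted p = 0.0024) in NTM. Mrps18b had 16.8, 18.2 and 20.5 RPKM in the in vivo 4-cell libraries and at most 5.88 in all others. Outside the 4-cell comparisons Mrps18b was mostly too low to be tested.

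At 0 in all libraries of at least 1 group were 4 members. Mrps34, a small subunit protein found only in mitochondrial ribosomes, was at 0 in 12 groups, among them the NTC embryos from the 1-cell to the 8-cell stage, and reached 1.58, 0.976 and 1.51 RPKM in the in vivo 4-cell libraries and 0.0784 to 0.284 in MEFs. It shares 77.8% of its exon bases with Nme3 and Mapk8ip3, so its low values do not show that the gene was silent. Mrpl33 was at 0 in the NTC 2-cell embryos, Mrpl52 in the in vivo 1-cell and in the NTC and NTM 2-cell embryos, and Mrps18c in the NTM 2-cell embryos. The number of members at 0 in a library ran up to 18 in the in vivo 1-cell and NTM 2-cell groups and was 0 in the 3 in vivo 4-cell libraries.

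Other genes of the same machinery, and those of its client and of the cytosolic ribosome, are set beside the members by counts. Of 76 cytosolic ribosomal protein genes, 75 were higher in vivo at the 8-cell than at the 2-cell stage, and 68 and 71 were higher in NTC and NTM embryos, with medians of 4.20, 3.01 and 3.52. Of the nuclear genes for respiratory chain subunits, which are assembled with the products of the mitoribosome, 38 of 71, 29 of 68 and 33 of 68 were higher, with medians of 1.60, 1.60 and 1.62. The members, at medians of 1.17, 1.05 and 1.17, thus had a smaller median than either list in each embryo type, a difference that was not tested. Over all genes, 13.8%, 14.1% and 17.9% were higher in this step and 27.8%, 21.0% and 21.9% lower, and the counts of the smaller lists that follow are to be read against that. The 26 assembly factors of the mitoribosome had 4 of 21, 4 of 24 and 7 of 22 higher, and 3, 2 and 1 lower. Mitochondrial aminoacyl-tRNA synthetases, which charge the transfer RNAs the mitoribosome reads, had 2 of 11, 2 of 17 and 3 of 16 higher and 2, 1 and 3 lower. The mitochondrial translation factors, for initiation, elongation and release, had 2 of 9, 1 of 8 and 2 of 10 higher and 0 lower, with medians of -0.46, -0.42 and 0.32, and the genes for mitochondrial DNA replication and transcription had 3 of 7, 2 of 10 and 1 of 9 higher and 0 lower. The 5 mitoribosome proteins without an Mrpl or Mrps name, Dap3, Ptcd3, Aurkaip1, Chchd1 and Gadd45gip1, had 2 of 4, 1 of 4 and 1 of 4 higher and 1, 0 and 1 lower.

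With the 4-cell stage as the end of the step, the in vivo medians of these lists were 5.85 for the cytosolic ribosomal proteins, 4.27 for the respiratory chain, 1.53 for the assembly factors, 1.82 for the synthetases and 1.02 for the translation factors, beside 3.27 for the members. In NTC embryos they were 2.91, 1.40, 1.39, 0.68 and 0.02, beside 1.47 for the members. Against the donor cell, 65 of 76 cytosolic ribosomal protein genes were lower in NTC 1-cell embryos than in CCs and 71 of 76 lower in NTM 1-cell embryos than in MEFs, with medians of -2.60 and -3.54. For the respiratory chain genes the counts were 54 of 72 and 56 of 71, with medians of -2.17 and -1.99.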

How the data were processed

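Single embryos and donor cells were profiled by RNA sequencing, with 3 libraries in each of 20 groups. Per the study's methods the authors filtered reads for adapters, redundancy and quality with Perl scripts, aligned them with TopHat and Bowtie2 and counted them with HTSeq, while the submitters' processing notes name Bowtie 0.12.2 and the mm8 build. The strand setting of the counting is not given in the sources used here, so reads of overlapping genes on opposite strands cannot be told apart. The authors deposited RPKM values, computed from the reads and length of each gene. Depth was recovered as the value that made low values whole reads. Where the annotated length of a member did not give whole reads, a length that did was searched for. All member values were then whole within a tolerance of 0.02 read, wider at high counts. Because depth and length were fitted to this end, it is no independent check. Exon lengths of 56 of the 77 members equal those of the GRCm38 annotation used here for names and positions, which 27056 of the 27238 identifiers matched, and no coordinate is given in mm8.

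Groups came from the sample labels. The labels speak of at least 3 independent experiments without tying libraries to them, so the p-values measure the spread between these libraries, which may in part be technical. For each comparison, genes with a mean of at least 0.5 RPKM in the libraries compared were tested on log2(RPKM + 1) with limma 3.58.1 (lmFit and eBayes with trend, R 4.3.3) and p-values were adjusted by Benjamini-Hochberg over all genes tested. Changes were compared between embryo types by the interaction term of a fit of 4 groups. An exact permutation test of 3 against 3 libraries cannot go below p = 0.1 and was not used. The scripts were tested on simulated data. Alternatives were a pseudocount of 0.1, no filter, median-ratio scaling, reads of the nuclear genome only, a replicate block, 1 fit of the 20 groups together, each library left out and no limit on the fold change. The comparisons that end at the 8-cell stage and the counts at an unadjusted p, which keep the 2-fold limit, were added after the data were seen. Libraries with the same replicate number did not deviate together over all genes tested, so the number was not used to pair libraries.

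The members and all gene lists were chosen with earlier results of these data known. Members named are up to 3 called with the largest change in each direction of each comparison, the 5 highest and 5 lowest in embryos, those at 0 in a whole group, and a set with well known roles; others are given as counts. Comparisons over 1 in vivo stage share its libraries. Promoters are RefSeq sequences of GRCm38.p6, and motif letters were searched on both strands.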

Additional observations from a re-analysis of the deposited data

Results flagged for a closer look

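A difference between embryo types in the change from 1 stage to the next was what singled out the following results, each tested by the interaction term of limma in groups of 3 libraries. From the 2-cell to the 4-cell stage the change differed from that in vivo for 25 members in NTC and 17 in NTM embryos, all with a smaller change in NT. In NTC the differences were -6.96 for Mrpl22, -6.84 for Mrpl57 and -5.97 for Mrps22 on the log2 scale, and in NTM they were -6.40 for Mrpl57, -6.26 for Mrpl22 and -6.05 for Mrps22.

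From the 4-cell to the 8-cell stage the change differed for 27 members in NTC, 26 with a larger and 1 with a smaller value than in vivo, and for 28 in NTM. In NTC the differences were 6.81 for Mrpl57, 6.12 for Mrps22, 6.11 for Mrpl22 and -2.14 for Mrps16. In NTM they were 6.48 for Mrpl57, 6.27 for Mrpl22 and 5.43 for Mrps31. Both steps rest on the same 3 in vivo 4-cell libraries, and with the 8-cell stage in place of the 4-cell stage limma called 0 members in either NT type.

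Reads on 2 pseudogene copies of members, which enter no comparison, were the other results picked out. Mrpl23-ps1 had its highest group mean, 7.79 RPKM, in the in vivo 4-cell embryos, where Mrpl23 had 22.5, and in the NTM blastulas it had 7.28, beside 6.67 for Mrpl23. Mrpl48-ps had its highest group mean, 10.7 RPKM, in the NTC 1-cell embryos, where Mrpl48 had 24.8.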

How the results depend on the processing

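Of the counts of members called, 152 of those recomputed under another setting stayed within 1.5 times the reported count, 37 did not and 3 changed direction; with a library left out the figures were 222, 55 and 2. Of the named members no call changed direction, and 58 calls were lost under another setting and 93 with a library left out. The cause of these changes was not tested. With no filter on low values the counts were 20 for NTC 2-cell to 4-cell, 0 for NTC and 0 for NTM 1-cell to 2-cell, 1 for NTC against in vivo blastulas, 2 for NTM against NTC 1-cell embryos, 13 in vivo, 11 NTC and 17 NTM for 2-cell to 8-cell, and 0 for the other stage transitions and for NT against in vivo at the other stages. With median-ratio scaling they were 9 for NTC 1-cell to 2-cell (5 higher, 4 lower, the direction reversed), 1 for NTM 1-cell to 2-cell (higher, reversed), 1 for NTC against in vivo blastulas, and 1 each for the other transitions and NT against in vivo at the other stages. A pseudocount of 0.1 gave 1 for NTM 1-cell to 2-cell and 2 for NTM against in vivo blastulas. Nuclear reads only gave 4 for NTM against in vivo blastulas and 3 for the other transitions. In 1 fit over all 20 groups the counts were 43 for NTM 2-cell to 4-cell, 12 for NTM 1-cell to 2-cell, 16 for NTC and 16 for NTM against in vivo blastulas, 4 for NTM against NTC 1-cell embryos, 4 for MEF against CC, 32 and 1 for the differences in change of NTM to the 4-cell and NTC to the 8-cell stage, 15 for the other transitions (10 lower, reversed), 17 for NT against in vivo at the other stages and 3 for NTM against NTC at later stages. With the 2-fold limit kept, counts at an unadjusted p under 0.05 in limma were 10 for NTM against in vivo blastulas and 3 for MEF against CC. They were 11 and 13 for the differences in change to the 8-cell stage and 25 for NTM against NTC at later stages. With the 8-cell in place of the 4-cell stage the in vivo count was 29 and the differences in change 0 and 0.

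The replicate block gave 0 for NTC against in vivo blastulas and 3 for the other transitions. Correlations of same-numbered libraries ran from -0.181 to 0.119, no comparison had all 3 over 0.1, and the numbers were not taken as pairs.

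With 1 library left out, counts ran from 54 to 62 in vivo, 26 to 29 in NTC and 14 to 24 in NTM for 2-cell to 4-cell, 13 to 30, 14 to 24 and 20 to 33 for 2-cell to 8-cell, 1 to 11 in NTC and 0 to 4 in NTM for 1-cell to 2-cell, 29 to 41 for NTC and 20 to 38 for NTM against in vivo 4-cell embryos, 0 to 4 and 0 to 2 against in vivo blastulas, and 7 to 15 for NTM against NTC 1-cell embryos. They ran from 0 to 1 for both differences in change to the 8-cell stage, 2 to 9 for the other transitions and 1 to 16 for NT against in vivo at the other stages.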
